A study of Mus musculus with 27 samples.

Results

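Intermediate mesoderm-like cultures that received retinoic acid and Activin A together (IM2) were compared with cultures that received neither (IM1). The comparison takes every library titled IM1 or IM2, 3 of each, which makes 6 of the 27 libraries of the series. The series follows mouse embryonic stem (ES) cells through epiblast-like cells and mesoderm to intermediate mesoderm, the embryonic tissue that gives rise to kidney and gonad, and on to cells directed towards the Sertoli cell, the supporting cell of the testis. Bulk RNA sequencing (paired-end, 75 bp) was done on total RNA, and 5 intermediate mesoderm media were tested side by side.

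Both groups came from 1 clone, clone 7, of XY ES cells on an F1:C57BL/6 x CBA background that carried Tesco-CFP, a fluorescent reporter driven by an enhancer of Sox9, and R26-rtTA, a doxycycline-responsive activator. IM1 medium held bFGF at 5 ng/ml and BMP4 at 20 ng/ml. IM2 medium held the same bFGF and BMP4 with retinoic acid at 100 nM and Activin A at 10 ng/ml. The IM3 medium held bFGF, BMP4 and retinoic acid without Activin A, so the difference between IM2 and IM1 is the sum of IM3 minus IM1 and IM2 minus IM3. No medium held Activin A without retinoic acid, and an interaction between the added factors could not be tested. The study describes its libraries as biological replicates, but the labels do not say whether those of a group came from separate cultures, so p-values measure only the spread between these libraries.

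Retinoic acid enters the cell, is shuttled by binding proteins and binds nuclear receptors that sit on DNA as heterodimers, and in embryos it is known for switching on anterior Hox genes, for opposing the caudal progenitor programme and for inducing the enzymes that degrade it. It is made from retinol by retinol dehydrogenases and retinaldehyde dehydrogenases and is cleared by Cyp26 enzymes. Activin A is a ligand of the TGF-beta family that shares receptors and the transducers Smad2 and Smad3 with Nodal, and their known targets include Nodal itself and the Nodal antagonists Lefty1 and Lefty2. In the early embryo the pathway is known for mesendoderm formation and left-right asymmetry.

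The best known retinoic acid response element is a pair of 6-base half-sites that point the same way and lie 5 bases apart, called DR5. Promoters from RefSeq (build GRCm38.p6, 250 bases before to 50 after the start) were searched on both strands for pairs of the half-sites AGGTCA or AGTTCA, as well as GGTTCA and also GGGTCA, around the spacer NNNNN. Such a pair was present in 32 of 32851 promoters (0.0974%), in 11 of the 13644 tested genes that had a promoter in the table (0.0806%), in 3 of 269 that were higher in IM2 (1.12%) and in 0 of 229 that were lower. A match is a description of these letters, not a shown binding site. The 3 promoters are printed 5′ to 3′ up to the base before the start, since their genes are among the members described next, with the element in capitals. They lie at chr14:16575477-16575726 on the minus strand for Rarb, whose element runs from 53 to 37 bases before the start, at chr19:37697558-37697807 on the plus strand for Cyp26a1, with the element 32 to 16 bases before the start on the opposite strand, and at chr5:90768268-90768517 on the plus strand for Ppbp, with the element 246 to 230 bases before the start on the opposite strand.
Rarb: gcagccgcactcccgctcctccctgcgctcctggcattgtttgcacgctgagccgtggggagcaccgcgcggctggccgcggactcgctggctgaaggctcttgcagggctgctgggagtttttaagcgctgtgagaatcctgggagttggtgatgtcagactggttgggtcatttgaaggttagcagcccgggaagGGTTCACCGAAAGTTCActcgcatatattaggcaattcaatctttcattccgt
Cyp26a1: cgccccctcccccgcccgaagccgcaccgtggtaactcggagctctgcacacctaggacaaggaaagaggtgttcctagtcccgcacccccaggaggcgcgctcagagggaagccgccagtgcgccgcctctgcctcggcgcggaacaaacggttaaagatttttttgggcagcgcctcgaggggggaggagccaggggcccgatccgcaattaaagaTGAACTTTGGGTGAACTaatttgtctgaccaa
Ppbp: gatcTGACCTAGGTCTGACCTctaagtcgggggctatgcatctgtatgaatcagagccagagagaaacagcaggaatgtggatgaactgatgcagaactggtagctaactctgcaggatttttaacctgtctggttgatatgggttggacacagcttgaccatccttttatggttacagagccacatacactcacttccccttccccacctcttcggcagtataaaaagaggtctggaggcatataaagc

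Of 20839 genes tested, 731 were differentially expressed (DE) between IM2 and IM1, which is 3.51% of those tested. A DE gene passed 3 limits: 0.01 for the Benjamini-Hochberg adjusted p of edgeR's quasi-likelihood test, 2 for the fold in either direction, and 100 for the normalized read count, averaged both over the 27 libraries and over the libraries of IM1 or of IM2. The normalized read count is the expected count of a gene scaled to a common library size. There were 405 DE genes that were higher in IM2 (1.94%) and 326 that were lower (1.56%). Of these, 391 and 321 were protein-coding, and 91 rose and 52 fell by more than 4-fold. The 3 libraries of one group lay wholly above or below those of the other for all 731 DE genes, and for 9797 or 47% of all genes tested. An exact permutation test of 3 against 3 libraries cannot go below a two-sided p of 0.1, so no such p is given for single genes. The median log2 fold change of all genes tested was 0.00, the level against which list medians are read. Counts of called list members are likewise read against the shares of 1.94% higher and 1.56% lower. Gene groups with 0 calls by edgeR in either direction also had 0 by DESeq2, and the number of their members with an unadjusted p under 0.05 is given beside them.

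**Figure D1:**
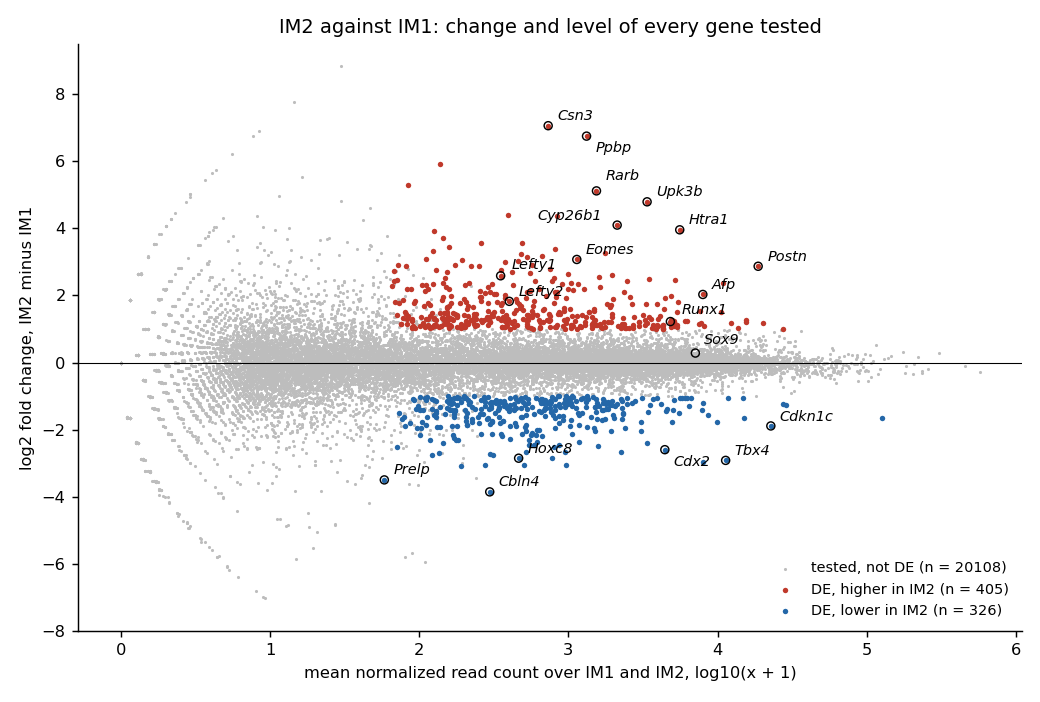
Log2 fold change of IM2 minus IM1 (y) against the mean normalized read count over both groups (x, plotted as log10 of the count plus 1) for the 20839 genes tested, with the 405 DE genes higher in IM2 in red and the 326 lower in blue. Csn3, Ppbp, Rarb and Upk3b sit highest among the labelled genes, Cbln4, Prelp and Tbx4 lowest, and Sox9 lies close to 0 at a high level.

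Library totals were 67899332 to 84876603 expected counts in IM1, 57083747 to 61654389 in IM2 and 39365494 to 55640100 in IM3. Genes with more than 3 counts numbered 20393 to 20782 per library in IM1 and 19776 to 19897 in IM2, and mitochondrial transcripts took 1.29 to 1.36% and 1.47 to 1.66% of counts. The summed level of 6 adult red blood cell genes was 0.925 to 1.39 CPM (counts scaled by the library total after TMM adjustment) in IM1, 0.373 to 0.582 in IM2 and 6.15 to 19.6 in IM3. The GC trend, which is the median deviation of GC-rich genes from the mean over all libraries minus that of GC-poor genes on the log2 scale, ran from 0.122 to 0.253 in IM1, from -0.089 to 0.193 in IM2 and from -0.411 to -0.074 in IM3. These values of the IM3 libraries stand beside every IM3 value given here, and their part in those values was not tested. Among the IM1 libraries, replicate 1 had the highest value of the 3 for 195 of the 405 DE genes higher in IM2 and the lowest for 196 of the 326 lower ones, against 7348 and 7448 of all 20839 genes tested. Without it 756 genes were DE. Neither the kit nor the counting is stated to keep strand. Exon overlap with another gene is therefore given for some of the genes named, though not for every one that has it.

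The defining genes of intermediate mesoderm did not move together. Wt1, a zinc finger factor of the genital ridge and kidney mesenchyme, read 544, 392.5 and 431.7 in the IM1 libraries and 2084, 2222 and 1893 in the IM2 libraries. It rose 4.55-fold (log2 fold change 2.19, SE 0.10, adjusted p = 3.72e-15). Lhx1, a LIM homeobox factor of the nephric duct, read 257.5, 506.9 and 420.1 in IM1 and 120.4, 142.8 and 150.0 in IM2. It fell by 1.53 on the log2 scale (SE 0.19, adjusted p = 3.07e-07), with every IM2 library below every IM1 library. Osr1, the earliest of these factors, overlapped between groups at 202.1, 228 and 259.4 against 230.9, 252.6 and 291.3 (log2 fold change 0.17, SE 0.16, adjusted p = 0.456). Pax2, which marks the nephric lineage, was near the bottom of the range at 25.5 ± 0.780 in IM1 and 11.2 ± 4.87 in IM2 (SD, n = 3) and was below the count minimum. On the per-length scale Pax2 amounted to 0.220 TPM (transcripts scaled to a fixed total) in IM1 and 0.0967 in IM2, against 6.39 and 29.7 TPM for Wt1, so the transcript of Pax2 was low in both media. Of these 4 markers of intermediate mesoderm, Wt1, Osr1 and Lhx1 were thus present in both groups and Pax2 was the one close to absent.

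The 3 genes that mark this comparison differed from one another. Sox9, the Sertoli cell factor whose enhancer drives the reporter, read 5269, 7188 and 6742 in IM1 and 7271, 7854 and 8248 in IM2. The IM2 libraries lay above the IM1 libraries, but the log2 fold change was 0.28 (SE 0.10, adjusted p = 0.0387), short of both the fold and the adjusted p for a call. Runx1, a Runt family factor expressed in granulosa cells and in blood progenitors, read 2841, 2972 and 2873 in IM1 and 6574, 7009 and 6678 in IM2. It rose 2.33-fold (log2 fold change 1.22, SE 0.10, adjusted p = 1.76e-10), with a gap between the groups far wider than the spread inside either. Lefty1, on chromosome 1 from 180935022 to 180938400 on the plus strand, read 87.0, 95.3 and 116.8 in IM1 and 549.9, 592.1 and 656.6 in IM2. It rose 6.01-fold (log2 fold change 2.59, SE 0.14, adjusted p = 6.24e-14).

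**Figure D2:**
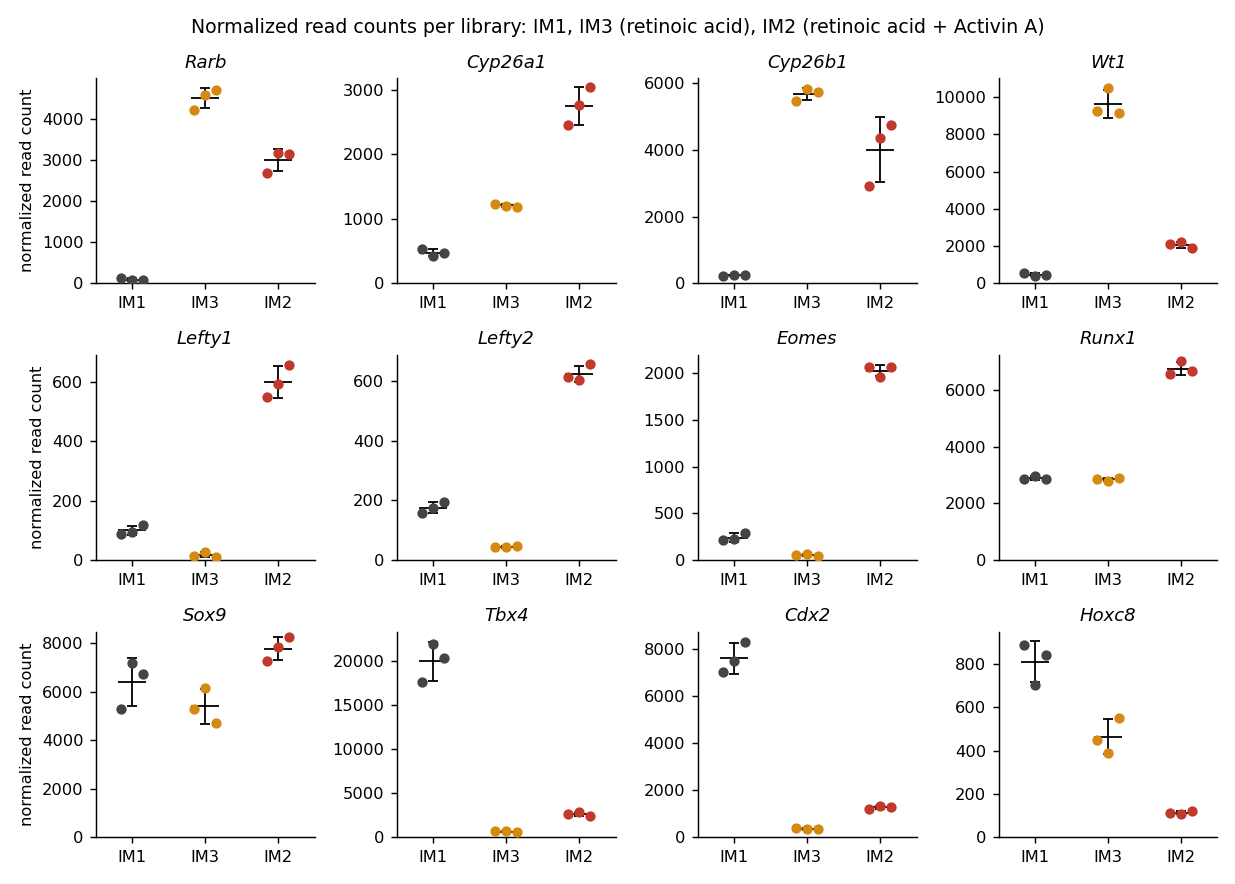
Normalized read count (y, from 0) of 12 genes in each library of IM1, IM3 and IM2 (points), with the mean and SD of 3 libraries (bars). The IM2 points of Lefty1, Lefty2, Eomes and Runx1 lie above both other groups, those of Rarb, Cyp26b1 and Wt1 lie between IM1 and IM3, and those of Sox9 lie above the IM1 points by less than 2-fold.

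Genes that answer to retinoic acid rose as a group. Of 16 response genes on the list, all tested, 10 were higher and 0 lower, where 1.94% of all genes tested were called higher, and the list median was 2.13. Rarb, a retinoic acid receptor gene on chromosome 14 (16430839 to 16819156, minus strand), read 119.5, 75.5 and 65.5 in IM1 and 2683, 3162 and 3131 in IM2. It rose 34.8-fold (log2 fold change 5.12, SE 0.19, adjusted p = 7.83e-17), and 34.1% of its exon length lies in exons of Top2b on the opposite strand. Its promoter holds the DR5 pair printed above. Cyp26a1, which encodes a retinoic acid hydroxylase and also holds the pair, read 531.7, 416.5 and 464.9 in IM1 and 2447, 2760 and 3039 in IM2, a 5.85-fold rise (log2 fold change 2.55, SE 0.15, adjusted p = 2.74e-13). Cyp26b1, the hydroxylase of the developing gonad, read 215.3, 248.5 and 235.3 against 2908, 4355 and 4756 and rose 17.1-fold (log2 fold change 4.10, SE 0.30, adjusted p = 2.43e-11). Dhrs3, which reduces retinaldehyde back to retinol, read 245.2, 237.2 and 198.9 against 847.4, 1113 and 1148 (log2 fold change 2.19, SE 0.15, adjusted p = 9.35e-12).

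Other called members of the response list were factors and enzymes with a wide range of levels. The TALE homeobox gene Meis1 rose by a log2 fold change of 2.44. Tgm2, a transglutaminase, rose by 1.93. Cdx1, a caudal homeobox gene, went from 19.03 ± 6.14 to 141 ± 27.4 (log2 fold change 2.89, SE 0.25, adjusted p = 7.61e-10). That call was lost when the IM libraries, or the IM1 and IM2 libraries, were fitted alone, with log2 fold changes of 2.89 and 2.88. Of the members without a call, Stra8, a germ cell gene, went from 0.569 ± 0.494 to 30.1 ± 10.9 and Hoxb1 from 5.74 ± 5.12 to 23.9 ± 10.1, both under the count minimum. Nrip1, a nuclear receptor corepressor, came to 0.88, and Crabp2, which delivers retinoic acid to its receptors, to -0.41.

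Within the retinoid pathway the steps differed. Of 20 members, 5 rose and 3 fell, and the median was 0.05. Of 6 genes of synthesis and reduction 1 rose and 2 fell, with Aldh1a2, the main retinaldehyde dehydrogenase of early mesoderm, reading 449.9, 662.9 and 639.7 in IM1 and 126.2, 132.5 and 122.1 in IM2 (log2 fold change -2.20, SE 0.13, adjusted p = 3.34e-13). Aldh1a3, a second such enzyme, read 1133, 1826 and 1880 against 389.4, 430.6 and 491.2 (log2 fold change -1.88, SE 0.15, adjusted p = 9.28e-11). Every IM2 library was below every IM1 library for both. All 3 degradation enzymes had positive values and 2 of them, Cyp26a1 and Cyp26b1, were called. Crabp1, a cytoplasmic binding protein, fell from 1971 ± 370 to 383 ± 34.2 (log2 fold change -2.36, SE 0.17, adjusted p = 1.24e-11). Among 6 receptors Rarb was the only one called, while Rara came to 0.15, Rarg to -0.73 and Rxra to -0.28.

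Genes that answer to Activin and Nodal were mixed. Of 17 response genes 7 were higher, 2 lower and 8 without a call, and the median was 0.87. Eomes, a T-box factor of mesendoderm, read 211.8, 221 and 290.8 in IM1 and 2067, 1959 and 2065 in IM2. It rose 8.42-fold (log2 fold change 3.07, SE 0.11, adjusted p = 3.13e-17). Mixl1, a paired-type homeobox factor of the primitive streak, read 31.6, 28.9 and 38.1 against 206.5, 204.9 and 253.8 (log2 fold change 2.76, SE 0.13, adjusted p = 3.16e-15). Both stayed far below the mesoderm cultures that precede the intermediate mesoderm media, where Eomes was 19821 ± 569 and Mixl1 16545 ± 812 (SD, n = 3). The members that fell were Lhx1 and Sox17, an endoderm factor that sits at the fold limit. Sox17 went from 1143 ± 107 to 571 ± 65.6, and its call was lost without IM1 replicate 2 (-0.93), without IM1 replicate 3 (-0.996) and without IM2 replicate 1 (-0.91).

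Among the pathway's own components, 28 of 29 were tested, 5 rose and 1 fell, and the median was 0.18. Of 7 tested ligands 2 rose. Nodal read 184.5, 166.6 and 207.2 in IM1 and 633.1, 718.4 and 736.3 in IM2 (log2 fold change 1.91, SE 0.13, adjusted p = 3.18e-12), and Inhba, which encodes the Activin A chain itself, went from 90.5 ± 2.36 to 202 ± 13.2 (log2 fold change 1.16, SE 0.23, adjusted p = 0.000218). Of 11 antagonists 3 rose and 0 fell. Cer1, the member with the most negative value, was not called and close to undetected, at 0, 0.706 and 7.46 in IM1 and 0 in all 3 IM2 libraries. Beside Lefty1 the genes that rose were Lefty2, at 158.2, 173.7 and 195.6 against 612.5, 602.4 and 655.6 (log2 fold change 1.83, SE 0.14, adjusted p = 3.60e-11), and Fst, which encodes the Activin-binding protein follistatin, at 217.1, 219.6 and 260.2 against 588.1, 538.3 and 509.5 (log2 fold change 1.23, SE 0.13, adjusted p = 1.54e-08). No IM2 library of any of these reached down to an IM1 library, and the groups were likewise apart for all 731 DE genes. Cfc1, a coreceptor of Nodal, fell from 136 ± 10.95 to 51.7 ± 4.69 (log2 fold change -1.39, SE 0.19, adjusted p = 2.13e-06), with 27.8% of its exons shared with Prss40 on the opposite strand and its call lost in the fit of the IM libraries alone. The 4 transducers were without a call, all 4 with an unadjusted p under 0.05, with Smad2 at -0.12, Smad3 at 0.56 and Smad4 at -0.22. Skil, a Smad corepressor, came to 0.87 and Fstl1, a follistatin-like protein, to 0.74, both under the fold limit.

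The IM3 libraries split each change into what was seen when retinoic acid was added and what was seen when Activin A was added to it. IM3 differed from IM1 by 1321 DE genes (6.34%), 545 higher (2.62%) and 776 lower (3.72%), and IM2 differed from IM3 by 792 (3.8%), 512 higher (2.46%) and 280 lower (1.34%). The 3 comparisons share libraries, so their values are only set side by side. Rarb was 5.71 higher in IM3 than in IM1 on the log2 scale and -0.59 in IM2 minus IM3. The values were 4.60 and -0.50 for Cyp26b1, 2.79 and -0.61 for Dhrs3, and 1.36 and 1.19 for Cyp26a1, the response gene of the 4 with a positive value for both differences. Of the 16 response genes, 8 were higher in IM3 than in IM1, and 2 were higher and 1 lower in IM2 than in IM3.

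Several Activin and Nodal response genes were below the IM1 level in IM3 and above it in IM2. Lefty1 was 16.99 ± 8.48 in IM3, under the 99.7 ± 15.4 of IM1, and its differences were -2.59 for IM3 minus IM1 and 5.18 for IM2 minus IM3. Eomes gave -2.19 and 5.26, Lefty2 -1.98 and 3.80, Nodal -1.43 and 3.33, and Fst -1.46 and 2.69. Of the 17 response genes, 0 were higher and 8 lower in IM3 than in IM1, while 11 were higher and 0 lower in IM2 than in IM3. Mixl1 was 0.29 in IM3 minus IM1 and 2.46 in IM2 minus IM3. For Lefty1, Eomes, Lefty2, Nodal and Fst the IM2 libraries thus stood further above IM3 than above IM1.

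The split differed from gene to gene elsewhere. Wt1 was 9647 ± 741 in IM3, well above the 2066 ± 166 of IM2, and its differences were 4.41 and -2.22. Upk3b, a uroplakin of the mesothelium, gave 6.71 and -1.92, Tcf21, a bHLH factor of the genital ridge, 4.91 and -1.58, and Tbx5 4.44 and -1.27. Cdx2 gave -4.45 and 1.85, Tbx4 -5.07 and 2.15, T -4.86 and 3.46 and Sox3 -6.41 and 4.83, so that these 4 were lowest in IM3, intermediate in IM2 and highest in IM1. Runx1 was -0.03 in IM3 minus IM1 and 1.25 in IM2 minus IM3. Htra1, a secreted serine protease, gave 0.16 and 3.80, and the cell cycle inhibitor genes Cdkn2b and Cdkn2a gave 0.08 and 1.53, and -0.07 and 1.49. Osr1 gave -1.76 and 1.92, which leaves the joint value of 0.17, and Six2, a kidney progenitor factor, gave -2.91 and 3.32 with a joint value of 0.41.

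**Figure D3:**
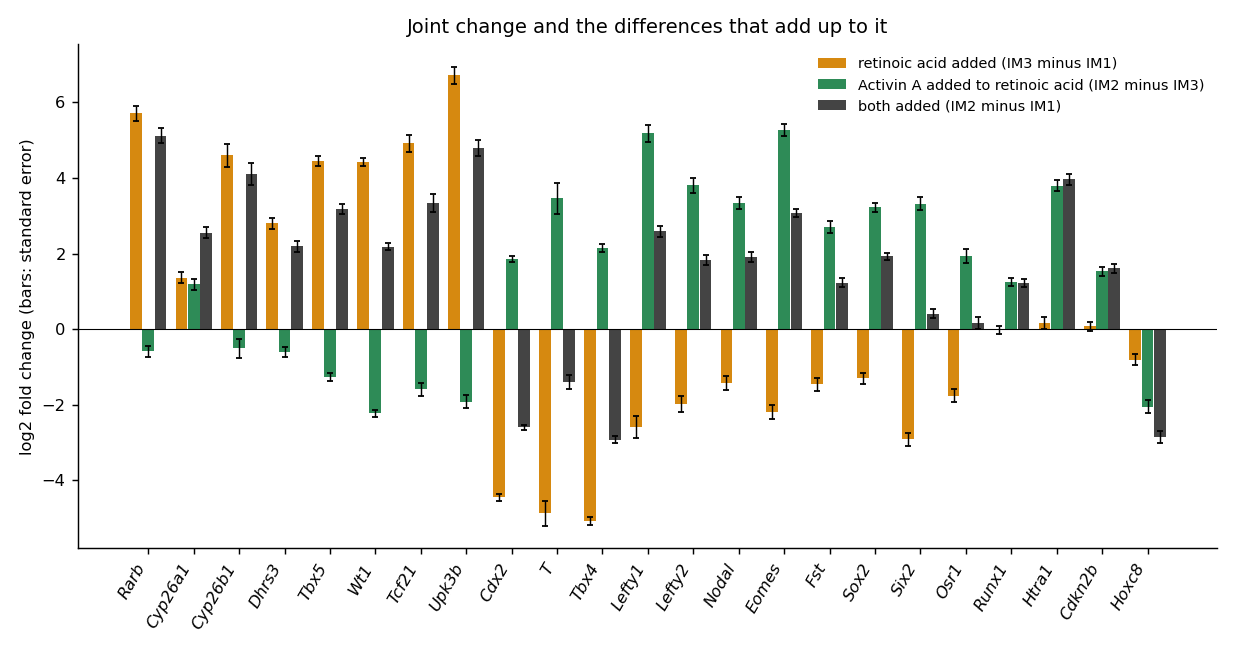
Log2 fold change (y) with its standard error for 23 genes in IM3 minus IM1 (orange), IM2 minus IM3 (green) and IM2 minus IM1 (dark grey). The orange and green bars point opposite ways for Wt1, Cdx2, Lefty1, Eomes and Osr1, and only the green bar is long for Runx1, Htra1 and Cdkn2b.

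In cultures that also held the GSK3 inhibitor CHIR99021 at 0.3 µM (IM5), the level of Lefty1 was 827 ± 93.3, that of Runx1 was 6914 ± 799 and that of Htra1 was 14339 ± 162 (SD, n = 3), against 600 ± 53.7, 6754 ± 227 and 10471 ± 624 in IM2. Wt1 was 1318 ± 92.0 in IM5 and Rarb 2011 ± 657, against 2066 ± 166 and 2992 ± 268 in IM2.

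Hox genes differed by cluster and by place in the cluster. They give cells their position along the head-to-tail axis, and genes with low paralog numbers lie towards the 3′ end of a cluster and are active towards the head. All 39 were tested, 5 rose and 17 fell, against 1.94% and 1.56% of all genes tested, and the median was -1.26. Of the 15 genes of paralog groups 1 to 5, 5 rose and 2 fell and the median was 1.06. Of the 12 of groups 6 to 9, 0 rose and 10 fell and the median was -1.99, and of the 12 of groups 10 to 13, 0 rose and 5 fell and the median was -1.23. The rises were all in the Hoxa and Hoxb clusters, while the 3 tested Hoxd genes of groups 1 to 5 were without a call, with negative values and a median of -1.21. Among those that rose were Hoxa3, Hoxb2, Hoxb3 and Hoxb4. Exon overlap was 27.1% for Hoxa3 (with Hoxaas2) and 27.3% for Hoxb2 (with Hoxb3os), both partners on the opposite strand. Hoxb3 came to 1.06, fell short of the fold limit without IM1 replicate 3 (0.98), and shares 52.9% of its exons with Hoxb3os on the opposite strand.

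All 9 tested Hoxc genes had negative values and 6 of them fell. Hoxc4 and Hoxc5, in spite of their low paralog numbers, were the 2 that fell in groups 1 to 5. Hoxc5 read 277.7, 283.8 and 282.6 in IM1 and 62.6, 68.3 and 45.2 in IM2 (log2 fold change -2.26, SE 0.13, adjusted p = 1.04e-13). Hoxc8, the deepest fall of any Hox gene, read 888.4, 703.8 and 843.5 against 109.6, 106.6 and 120.2 (log2 fold change -2.85, SE 0.16, adjusted p = 1.17e-13). Hoxc10 fell by 2.51, Hoxc6 by 2.46, Hoxb8 by 2.46, Hoxb6 by 2.15 and Hoxa7 by 2.14 on the log2 scale. Their IM1 and IM2 libraries were wholly apart, as were those of all 731 DE genes. In the split by factor, Hoxc5 was 0.28 in IM3 minus IM1 and -2.54 in IM2 minus IM3, and Hoxc8 was -0.81 and -2.05. Hoxa11, in the 5′ part of its cluster, gave -3.18 and 1.89. Exon overlap was 35.0% for Hoxa11 (with Hoxa11os) and 20.4% for Hoxa7 (with Hoxaas3), both partners on the opposite strand. Over groups 1 to 5 the median was 0.96 for IM3 minus IM1 and -1.28 for IM2 minus IM3, and over groups 10 to 13 it was -3.14 and 1.58.

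**Figure D4:**
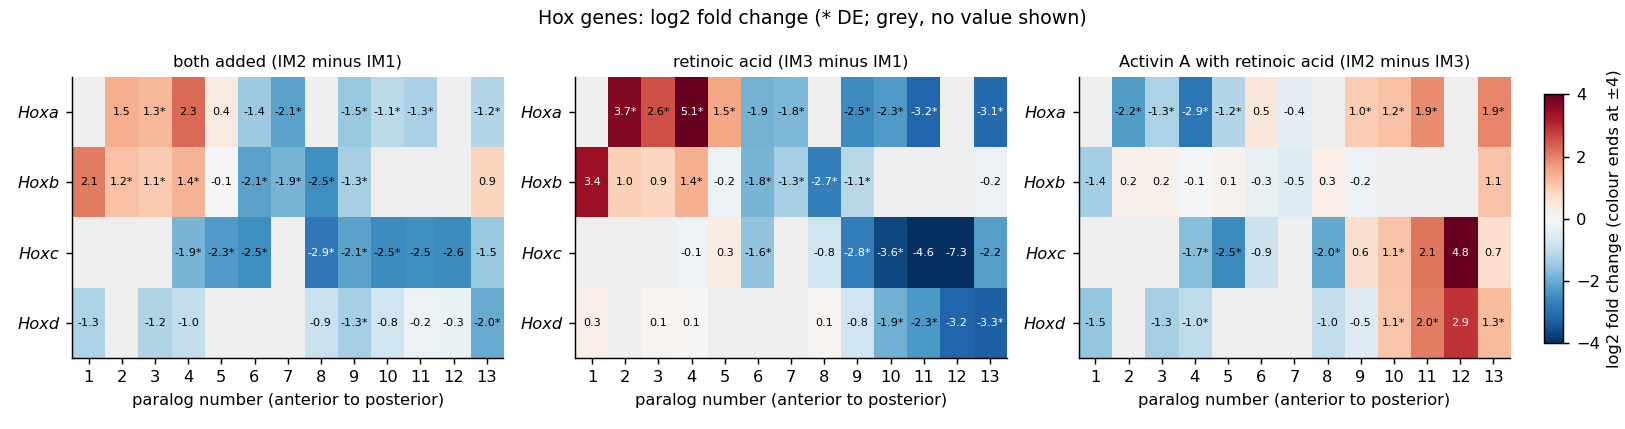
Log2 fold change of Hox genes by cluster (rows) and paralog number (columns) in IM2 minus IM1, IM3 minus IM1 and IM2 minus IM3, with DE genes starred and grey where no value is shown. The first panel is red at the left in Hoxa and Hoxb and blue from group 6 onwards, Hoxb13 excepted, and along the whole Hoxc and Hoxd rows.

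Caudal progenitor genes mostly went down. Of 15 members 3 rose and 6 fell, against 1.94% and 1.56% of all genes tested, and the median was -1.13. Cdx2, the caudal homeobox factor, read 6997, 7500 and 8304 in IM1 and 1167, 1309 and 1287 in IM2, a 6.06-fold fall (log2 fold change -2.60, SE 0.08, adjusted p = 8.19e-19). Nkx1-2 fell by 2.68 and T, the Brachyury gene, by 1.41 on the log2 scale. Sox3 fell by 1.58 and Evx1 by 1.52. The 3 that rose were Cdx1, the neural and pluripotency factor Sox2 and the Wnt target gene Sp5. Sox2 read 212.7, 195.6 and 240.3 against 805.3, 774.3 and 878.6 (log2 fold change 1.93, SE 0.10, adjusted p = 1.17e-14). The summed level of the 15 members was 224 to 240.4 TPM in the IM1 libraries, 80.3 to 82.9 in IM2 and 26.6 to 29.3 in IM3.

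Among presomitic and somite genes, 17 of 19 were tested, 3 rose and 1 fell, and the median was -0.51. The 9 presomitic genes gave 0 calls, with 6 at an unadjusted p under 0.05. Meox1, a homeobox gene of the somite, read 124.8, 163.1 and 162.4 in IM1 and 980.4, 940.9 and 955.5 in IM2 (log2 fold change 2.67, SE 0.15, adjusted p = 1.04e-13). Foxc2, a forkhead factor of paraxial and intermediate mesoderm, went from 1048 ± 150 to 5909 ± 950 (log2 fold change 2.49, SE 0.12, adjusted p = 7.52e-15), while its relative Foxc1 went from 1677 ± 230 to 813 ± 19.6 (log2 fold change -1.04, SE 0.10, adjusted p = 2.21e-09), close to the fold limit and without a call when IM1 replicate 3 was left out (-0.95). Tcf15, a bHLH factor of the somite, went from 45.7 ± 14.01 to 102 ± 13.1, at the count minimum, a log2 fold change of 1.15 that lost its call in 8 of 15 alternative fits, among them those without IM1 replicate 1 (0.96), IM2 replicate 2 (1.09) and IM2 replicate 3 (1.10). Msgn1 and Ripply2, which mark presomitic mesoderm, had 3 counts or fewer in all 6 libraries.

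Kidney and nephric regulators were mixed. Of 24 members 3 rose and 3 fell, against 1.94% and 1.56% of all genes tested, and the median was -0.08. Beside Wt1 the genes that rose were Gfra1, a coreceptor for GDNF, from 837 ± 105 to 3125 ± 101 (log2 fold change 1.898, SE 0.11, adjusted p = 2.38e-13), and Wnt11, a ligand of the ureteric tip, from 1078 ± 30.4 to 2242 ± 49.99. Beside Lhx1 the genes that fell were Ret, the receptor that Gfra1 serves, from 261 ± 30.4 to 115 ± 14.6 (log2 fold change -1.19, SE 0.12, adjusted p = 5.63e-09), and Hoxa11. Sall1 came to -0.37 and Gata3, a factor of the nephric duct, to -0.41. On the study's own lists, the intermediate mesoderm list of 7 had 1 rise and 1 fall (Wt1 and Lhx1) and the kidney list of 10 had 1 and 1 (Wt1 and Hoxb7). These lists are the study's own and were used by it on these samples, so they are not independent evidence of a direction.

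Genital ridge regulators had more positive values. Of 16 members 3 rose and 0 fell, against 1.94% and 1.56% of all genes tested, and the median was 0.53. Tcf21 read 39.5, 14.1 and 14.1 in IM1 and 199.6, 224.6 and 241.3 in IM2 (log2 fold change 3.33, SE 0.24, adjusted p = 1.84e-11), with the first IM1 library above the other two. Nr2f1, an orphan nuclear receptor, rose from 46.4 ± 6.03 to 240 ± 32.5 (log2 fold change 2.36, SE 0.15, adjusted p = 2.75e-12). Gata4, a zinc finger factor needed for the gonadal primordium, came to 0.81 and its partner Zfpm2 to 0.65, with adjusted p-values of 5.64e-10 and 9.77e-08 but under the fold limit. The study's genital ridge list of 10 tested genes gave 2 rises and 0 falls, Wt1 and Tcf21.

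Sex-determining and supporting cell genes were largely without a call. Of 14 tested Sertoli regulators 2 rose, Cyp26b1 and Sox8, a close relative of Sox9 that read 130.1, 164.5 and 160.8 in IM1 and 334.6, 319.8 and 344.1 in IM2 (log2 fold change 1.13, SE 0.11, adjusted p = 4.97e-09). Sox10 went from 9.41 ± 3.99 to 50.8 ± 4.11, under the count minimum. Amh, the Sertoli hormone, was 59.8 ± 5.38 and 46.3 ± 4.56, and Dmrt1, a male sex factor, 29.2 ± 10.7 and 55.4 ± 1.47. Sry and Shbg had 3 counts or fewer in all 6 libraries. On the study's Sertoli list, 5 of 23 tested genes rose, Cyp26b1, Wt1, Col9a1, Clu and Sox8, and 0 fell. Granulosa regulators gave 2 rises, Runx1 and Fst, and 1 fall, Bmp2, out of 11. Foxl2, the ovarian forkhead factor, was 26.3 ± 14.5 and 18.2 ± 2.20, and Wnt4, an ovarian ligand, came to -0.80. Of the Runx family, Runx1 was the 1 of 5 called, with Runx2 at 0.17, Runx3 at 0.19 and their shared partner Cbfb at 0.10. The study's lists for Leydig cells (6 tested), granulosa cells (10) and adrenal (3) had 0 calls, with 5, 5 and 3 members at an unadjusted p under 0.05.

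Limb and lateral plate genes included both extremes. Tbx5, the T-box gene of forelimb and heart, read 129.2, 132.7 and 134.2 in IM1 and 1114, 1243 and 1216 in IM2, a 9.01-fold rise (log2 fold change 3.17, SE 0.13, adjusted p = 4.16e-16). Tbx4, its counterpart of the hindlimb and allantois, read 17613, 22011 and 20396 against 2644, 2875 and 2422, a 7.56-fold fall (log2 fold change -2.92, SE 0.10, adjusted p = 1.18e-17). The groups were apart by far more than their spread in both genes and in opposite directions. Foxf1, a forkhead factor of splanchnic mesoderm, fell by 1.34 on the log2 scale. Over the 20 list members 1 rose and 2 fell, with a median of -0.53, and Gata6 came to 0.95 (1.00 and past the limit without IM1 replicate 2, 1.02 without IM2 replicate 1), Hand1 to -0.76, Hand2 to -0.62 and Pitx1, another hindlimb factor, to -0.44. In bulk cultures, fewer cells of a type and less RNA per cell cannot be told apart.

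Signalling ligands of other families changed gene by gene. In the BMP pathway, where BMP4 was present in both media, 1 of 22 members rose and 3 fell. The shares over all genes tested were 1.94% higher and 1.56% lower, here and for the FGF pathway below. Bmp2 read 4791, 4664 and 4822 in IM1 and 1368, 1339 and 1456 in IM2 (log2 fold change -1.78, SE 0.06, adjusted p = 4.65e-17). Msx1, a target, fell by 1.05 and Chrd, the chordin gene, by 1.01 on the log2 scale, both near the fold limit. Msx1 lost its call without IM2 replicate 1 (-0.99), and Chrd lost it in 6 of 15 alternative fits, among them those without IM1 replicate 1 (-0.999), IM1 replicate 2 (-0.99) and IM2 replicate 1 (-0.93). Id1 came to -0.24 and Id3, likewise a direct BMP target, to 0.31. In the FGF pathway 1 of 23 members rose and 1 fell. Fgf10, a ligand of limb and lung mesenchyme, rose by 1.68 and Fgf3, a ligand of the tail bud, fell by 1.79 on the log2 scale. The 10 feedback and ETS genes were without a call, 6 of them at an unadjusted p under 0.05.

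The Wnt list, the longest signalling list, had the most calls by number, with 5 rises and 7 falls among 31 and a median of 0.02. Over all genes tested 1.94% were called higher and 1.56% lower. By share the retinoic acid response list had more, with 10 calls among 16. The R-spondins and antagonists had 3 rises and 3 falls among 11. Sfrp5 read 87.0, 85.4 and 54.7 in IM1 and 1196, 1750 and 1814 in IM2 (log2 fold change 4.38, SE 0.16, adjusted p = 5.27e-17), Sfrp1 went from 2417 ± 413 to 8369 ± 322 (log2 fold change 1.79) and Dkk2 from 1052 ± 85.3 to 2864 ± 122 (log2 fold change 1.44). Of 12 ligands 1 rose and 3 fell, among them Wnt6 by 1.88 and Wnt7b by 1.38. Axin2, a common readout of the pathway, fell from 2909 ± 113 to 1173 ± 22.7 (log2 fold change -1.31, SE 0.06, adjusted p = 3.07e-15). Notum, a Wnt deacylase, fell by 1.88 with 38.1% of its exons shared with Notumos, and lost its call when the IM libraries, or the IM1 and IM2 libraries, were fitted alone. Sp5, likewise a Wnt target, rose by 1.47 and Lef1 came to 0.40, so targets did not share a direction. Among 10 TGF-beta ligands and receptors 2 rose and 0 fell, Tgfb3 from 315.5 ± 18.4 to 1361 ± 22.4 (log2 fold change 2.11, SE 0.08, adjusted p = 1.22e-16) and the latency protein gene Ltbp3 by 1.16. The 15 Notch and 10 Hedgehog genes gave 0 calls by edgeR, with medians of -0.33 and -0.14 and with 12 and 7 members at an unadjusted p under 0.05.

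The lists of extracellular matrix and cartilage genes had called rises and no called falls, but their medians were close to that of all genes tested. Prelp, a matrix proteoglycan gene that is not on them, fell and is given with the largest falls. Of 15 collagens and matrix genes 4 rose and 0 fell, where 1.94% of all genes tested were called higher and 1.56% lower. The median was 0.05, and 8 values were positive and 7 negative. Lum, the lumican gene, read 35.1, 32.5 and 39.8 in IM1 and 791.6, 748.4 and 707.5 in IM2 (log2 fold change 4.39, SE 0.15, adjusted p = 1.83e-17), and its relative Dcn rose by 3.24. Postn, the periostin gene, read 4638, 4366 and 4499 against 34495, 33876 and 30433 (log2 fold change 2.87, SE 0.09, adjusted p = 1.20e-18), which on the per-length scale was 45.2 TPM in IM1 and 345.8 TPM in IM2. Bgn rose by 1.28. Of 11 cartilage genes 4 rose and 0 fell, the median was 0.28, and 8 values were positive and 3 negative. Col11a1 rose by 2.38, Col9a1 by 1.51, Hapln1 by 1.51 and Col2a1 by 1.05. Col2a1 was without a call when IM1 replicate 3 (1.00) or IM2 replicate 3 (0.89) was left out. Fn1 came to -0.30 and Col1a1 to 0.33, and the fibrillar collagen Col3a1 to 0.98, which passed without IM1 replicate 2 (1.05) or IM2 replicate 1 (1.04). Smooth muscle genes gave 0 calls in 9, 4 of them at an unadjusted p under 0.05, with Acta2 at -0.22 and Tagln at 0.10.

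Lists for other cell types that such cultures can hold were read in the same way. Upk3b read 409.5, 161.7 and 143.3 in IM1 and 6195, 7117 and 6171 in IM2 (log2 fold change 4.79, SE 0.21, adjusted p = 1.68e-15), and Upk1b rose by 1.22, while the epithelial cadherin gene Cdh1 fell from 6633 ± 551 to 2417 ± 33.7. These were the calls among 15 genes of mesothelium and simple epithelium. Of 18 endothelial and hemangioblast genes 6 fell and 1 rose, against 1.56% and 1.94% of all genes tested, and the median was -0.88. Cd34 fell by 1.61, Cdh5 by 1.22, Esam by 1.20, Sox18 by 1.16, Tie1 by 1.15 and Sox7 by 1.12 on the log2 scale, Kdr came to -0.93 and Pecam1 to -0.40, and Emcn, at 57.4 ± 9.14 and 147 ± 14.7, was the 1 that rose. The summed level of the endothelial list was 304.1 to 328.5 TPM in IM1 and 186 to 199 TPM in IM2 and 132 to 150.6 TPM in IM3, and its part in the other results was not tested.

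Of the embryonic globin genes on the list 2 fell. Hbb-bh1 read 192.5, 254.1 and 279.2 in IM1 and 39.1, 40.4 and 56.7 in IM2 (log2 fold change -2.41, SE 0.27, adjusted p = 8.73e-08), and Hba-x fell by 1.86, the 2 calls among 13 erythroid genes. Hbb-y, likewise an embryonic globin gene, was not called, at 31.0 ± 5.65 and 20.1 ± 2.91 (log2 fold change -0.63, SE 0.27, adjusted p = 0.0869). Of 18 cardiac muscle genes Myh7 alone was called, at -1.35 from 1075 ± 123 to 424 ± 99.3. Visceral endoderm and liver genes gave 2 rises in 10. Afp, the alpha-fetoprotein gene, read 3074, 3163 and 3163 in IM1 and 11056, 13885 and 13448 in IM2 (log2 fold change 2.03, SE 0.14, adjusted p = 3.69e-12), and Apoa1 rose by 1.53, while Apob came to 0.13 and Ttr to -0.72, so the list did not move as one. Definitive endoderm gave 1 fall in 10, Sox17. Of 13 tested neural and neural crest genes Tubb3, a neuronal tubulin, rose by 1.22 and Nes came to 0.88. Of 16 pluripotency genes Sox2 and Dppa5a rose, by 1.93 and 1.77, and Lin28a fell by 1.20, with Pou5f1 at -0.43 and Nanog at 0.36. The 9 germ cell genes gave 0 calls, 6 of them at an unadjusted p under 0.05, with Kit at -0.99, a value past the limit without IM1 replicate 1 (-1.06), IM2 replicate 1 (-1.01) or IM2 replicate 2 (-1.01). Of 8 genes of allantois and extraembryonic mesoderm 3 fell, Tbx4, Cdx2 and Hoxa13, and 0 rose.

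**Figure D5:**
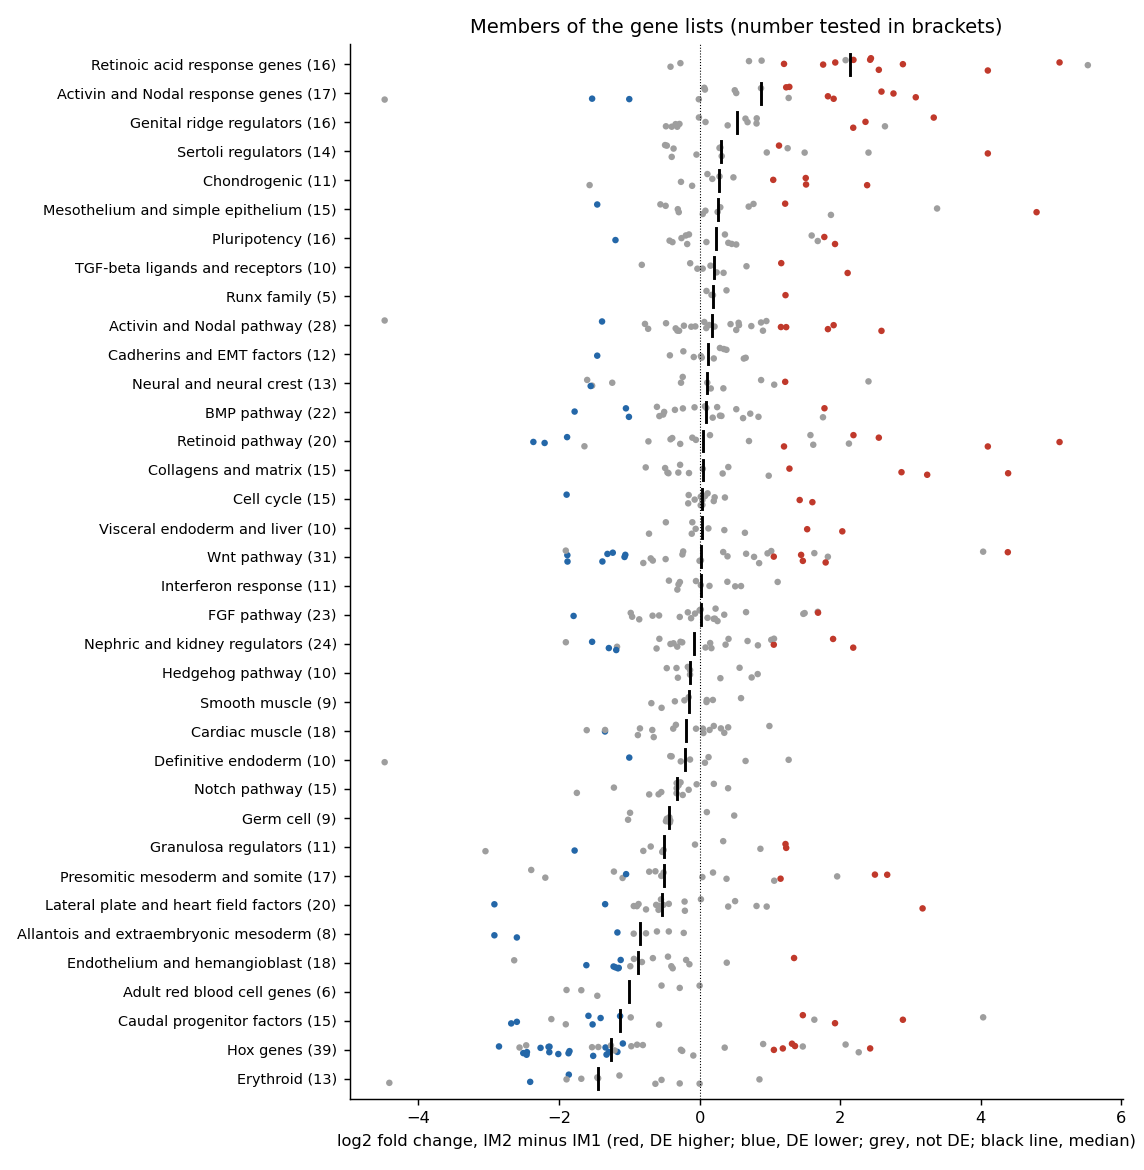
Log2 fold change of IM2 minus IM1 (x) for the tested members of each gene list (rows, number tested in brackets, ordered by median), with DE members in red (higher) or blue (lower) and the list median as a black line. The retinoic acid response list has the highest median, 2.13, and the erythroid, Hox and caudal progenitor lists have the lowest.

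Among cell cycle genes, 3 genes of cyclin-dependent kinase inhibitors were called. Cdkn2b went from 504 ± 11.5 to 1531 ± 78.3 (log2 fold change 1.604, SE 0.11, adjusted p = 1.27e-11) and Cdkn2a from 286 ± 10.48 to 767.5 ± 99.4 (log2 fold change 1.42, SE 0.13, adjusted p = 2.50e-09). Cdkn1c, on chromosome 7, read 30032, 39234 and 38320 in IM1 and 8657, 9885 and 10462 in IM2 (log2 fold change -1.89, SE 0.11, adjusted p = 2.32e-13). These were the calls among 15 cell cycle genes, with Mki67 at 0.11, Top2a at 0.20 and Pcna at -0.16. The 11 interferon response genes gave 0 calls, with 6 at an unadjusted p under 0.05.

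The 12 largest rises named by rule began with Csn3, a casein gene, which read 29.0, 4.24 and 0.829 in IM1 and 1465, 1468 and 1411 in IM2 (log2 fold change 7.06, SE 0.34, adjusted p = 5.11e-15). Ppbp, a platelet chemokine gene whose promoter holds the DR5 pair printed above, read 65.9, 9.88 and 0.829 against 2569, 2747 and 2530 (log2 fold change 6.75, SE 0.32, adjusted p = 6.33e-15). The first IM1 library lay well above the other 2 for both genes and still far below every IM2 library. Slc4a9, an anion exchanger, rose by 5.92, Zfp804a by 5.30, the potassium channel gene Kcna5 by 3.91 and the glutamate receptor gene Gria1 by 3.72. Htra1 read 826.9, 609.9 and 590.0 against 9878, 10413 and 11121 (log2 fold change 3.96, SE 0.15, adjusted p = 5.34e-17). The others of the 12 were Rarb, Upk3b, Lum, Sfrp5 and Cyp26b1. Zfp804a lost its call when the IM1 and IM2 libraries were fitted alone, at a log2 fold change of 5.29.

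The 12 largest falls began with Cbln4, a secreted cerebellin, at 448.2, 605 and 604.1 in IM1 and 40.1, 43.5 and 30.8 in IM2 (log2 fold change -3.86, SE 0.22, adjusted p = 1.37e-13). Prelp, a matrix proteoglycan gene, fell by 3.50 from 105 ± 46.5 to 9.28 ± 2.29, with a mean that sits at the count minimum. The call of Cbln4 was lost whichever IM1 library was left out (-3.98, -3.78 and -3.79 without replicates 1, 2 and 3), and that of Prelp without IM1 replicate 2 (-3.13). In these fits both genes still passed the limits on fold and adjusted p and missed the count minimum. Ascl2, a bHLH factor of trophoblast and of Wnt-driven stem cells, read 315.5, 333.9 and 367.1 against 36.2, 53.8 and 30.8 (log2 fold change -3.08, SE 0.21, adjusted p = 9.15e-12). Phlda2, which limits placental growth, read 12810, 15218 and 14526 against 1774, 1866 and 1785 (log2 fold change -2.97, SE 0.14, adjusted p = 3.95e-15). Klf14, a Krüppel-like factor, fell by 2.85, the keratin gene Krt79 by 3.06, Lrrc17 by 3.06 and Pcdhac2, which shares 48.6% of its exons with Pcdha7 on the same strand, by 3.06 on the log2 scale. Mrc1, the mannose receptor gene, fell by 2.76 and Tnfrsf11a, the receptor RANK, by 2.75, and their calls were lost in 1 and 4 of the 15 alternative fits. For Tnfrsf11a these include the fits without IM1 replicates 1, 2 and 3, where the value was -2.79, -2.75 and -2.69. Mrc1 and Tnfrsf11a likewise missed only the count minimum in the fits that lost them. Tbx4 and Hoxc8 complete the 12. The rule that named these 12 took only genes with IM1 and IM2 libraries wholly apart, so that trait is no result.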

How the data were processed

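Total RNA was extracted with Trizol and sequenced after TruSeq library preparation. The deposited tables give, per gene and library, the RSEM expected count, TPM and effective length. The submitters' processing notes name cutadapt 1.9.1, STAR 2.5.2a, RSEM 1.3.0 and build GRCm38. TPM, which the authors also deposited, served only for levels per length.

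Expected counts of the 27 libraries were rounded and fitted per group with edgeR 4.0.16 (R 4.3.3) after filterByExpr and TMM scaling, with Benjamini-Hochberg adjustment over the 20839 genes tested. DE genes had to pass limits on the adjusted p (0.01), the fold (2) and the mean normalized read count (100). The alternatives used DESeq2 1.42.0, other samples, filters, limits and offsets, a replicate block and left-out libraries. Names, coordinates and exon overlaps came from GENCODE M21, which matched 48435 of 48795 gene IDs (99.26%, with 99.98% of expected counts). The script was tested on simulated data. Replicates differed beyond sampling noise (chi-square per degree of freedom 5.69 to 16.4). Library totals were 35923040 to 84876603 expected counts.

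Members and gene lists were chosen with earlier results of these data known. Genes were named by rule: the marker genes Sox9, Runx1 and Lefty1, classical markers and targets, the DE genes that rose most (12) and fell most (12) with no overlap between libraries, leaving out genes with over 50% of their exons inside other genes, and per list up to 8 called and 6 uncalled members. Other genes were named after their values were seen: single genes in counts of 5 or fewer, genes of the Hox clusters, and the imprinted genes of the closing section. Some results are not reported here.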

Additional observations from a re-analysis of the deposited data

How the results depend on the processing

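The count of 731 DE genes (405 higher, 326 lower) stayed within 1.5 times under every alternative but those that dropped a limit: with no count minimum it was 1405 (743 higher, 662 lower) and with no fold minimum 4230 (2276 higher, 1954 lower). Leaving out 1 library at a time gave 706 to 756, with 384 to 421 higher and 300 to 340 lower. DESeq2's Wald test gave 718, of which 717 were shared, and the IM1 and IM2 libraries alone gave 782, of which 694 were shared. With the replicate block it was 728. Equal replicate numbers of IM1 and IM2 correlated by 0.148, 0.199 and -0.0489 in their deviations. The mean was 0.0995 over equal numbers and -0.0459 over unequal numbers. The labels do not say whether equal numbers share a culture or a day, and such sharing was not tested.

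Over 15 alternative fits, 17 of the 130 called genes examined lost the call in at least 1 fit and 0 changed sign. Of those without a call, 6 passed in at least 1 fit and 14 changed sign, and none of these 14 is named here. Of 1728 pairs of a list count and an alternative, 78 moved by more than 1.5 times, and 12 did so with both the count and the fold minimum in place. Cdx1, Zfp804a, Cbln4, Prelp, Notum, Cfc1, Mrc1, Tnfrsf11a and Slc22a18 passed the limits on fold and adjusted p in the fits that lost them. For these genes the count minimum was the limit missed. The same held for Gjb5, a gene of the study's ES cell list, and for Tcf15 except without IM1 replicate 1, where its fold was too small. Chrd, Sox17, Foxc1, Col2a1 and Hoxb3 missed the fold limit in the fits that lost them, as did Msx1 without IM2 replicate 1. What lay behind the remaining changes was not tested. Genes with 3 counts or fewer in every library were too shallow to compare.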

Other observations

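Imprinted genes, expressed mainly from the allele of one parent, were listed after Cdkn1c, Phlda2 and Ascl2 had been seen to fall, so the list is a description. All 51 listed genes were tested. By edgeR 0 were higher and 9 lower in IM2, where 1.94% of all genes tested were called higher and 1.56% lower. The median log2 fold change was -0.12, and 18 values were positive and 33 negative. Beside those 3 genes the falls were Slc22a18, Peg10, Klf14, Snrpn (-1.50), Magel2 (-1.69) and Dio3 (-1.88). Klf14, like Phlda2 and Ascl2, is also among the 12 largest falls named above. Peg10, a retrotransposon-derived gene of the placenta, read 198972, 194682 and 186361 in IM1 and 67260, 61799 and 55166 in IM2 (log2 fold change -1.65, SE 0.06). It came to -0.94 in IM3 minus IM1 and -0.71 in IM2 minus IM3. Others on the list were without a call: H19 came to -0.09, Igf2 to -0.10, Mest to -0.55, Peg3 to 0.52 and Dlk1 to 0.37.

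Cdkn1c, Phlda2, Ascl2 and Slc22a18 lie in one interval of chromosome 7 (GRCm38), from H19, which starts at 142575529, to Osbpl5, which ends at 143756985. Of 25 genes tested there, 4 fell and 1 rose, and the median was -0.12. Over all genes tested 1.56% were called lower and 1.94% higher. The interval was set out around genes already seen to fall, so its counts are a description and no evidence for the region. Slc22a18 came to -2.33 and lost its call whichever IM1 library was left out (-2.43, -2.21 and -2.33 without replicates 1, 2 and 3). In these fits Slc22a18 passed the limits on fold and adjusted p and missed the count minimum. The gene that rose was Tnfrsf23 (1.54), a decoy receptor. Between and beside the genes that fell, Nap1l4 came to 0.15, Cd81 to -0.10 and Kcnq1ot1, the noncoding RNA of the interval, to -0.12. Cdkn1c shares 30.7% of its exon length with Gm44732.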
